A study of Mus musculus with 2 samples.

Results

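Pericytes were taken as the kept cell barcodes with a unique molecular identifier (UMI) of at least 3 of 7 markers, Rgs5, Kcnj8, Abcc9, Higd1b, Vtn, Pdgfrb and Cspg4. A barcode with any UMI of Myh11, Cnn1, Pecam1, Cdh5, Lum, C1qa or Rpe65 was not counted, since these genes mark smooth muscle, endothelium, fibroblasts, macrophages and retinal pigment epithelium (RPE). The rule found 470 pericytes among 62485 kept cells, 148 of 23200 in the library labelled sponge and 322 of 39285 in the library labelled GFP. The cells were chosen by the measured counts of these 14 genes, so the levels of these genes in pericytes are a description only.

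The cells came from the optic cup, the back of the eye with retina, RPE and choroid, of Abca4KO mice, dissociated with papain and made into droplet 3′ libraries. One library was from eyes given AAV2.8-Sponge.mir181, a viral vector for a transcript that binds the microRNAs miR-181a/b, and the other was from eyes given AAV2.8-GFP. All mice lacked Abca4, the flippase that clears retinaldehyde from photoreceptor discs, so no wild-type eye is in the comparison. Injection was under the retina at 2 months, and the series places collection 4 months after it, yet the samples themselves are labelled 4 months old. Each mouse had 1 eye of each kind. The sources used here give neither the number of mice nor the promoters of the vectors, and they assign no cell to a mouse. There was 1 library per group, so no test was run and no difference below has a replicate check. Intervals are 95% and cover counting error only, and "higher" or "lower" says which library had the larger value.

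Pericytes are mural cells that sit in the basement membrane of capillaries and share it with the endothelium. Endothelial PDGF-B recruits and keeps them through the receptor PDGFRβ, and Notch3 in the pericyte answers to Jagged1 on the neighbouring cell. In the retina they are unusually dense. They set capillary tone through ATP-sensitive potassium channels (Kcnj8 with Abcc9), calcium and chloride channels and the nitric oxide to cyclic GMP pathway, and they take part in the blood-retina barrier.

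The vector is directed at 2 microRNAs that share 1 seed, so the mature sequences are shown with the seed (bases 2 to 8) in capitals. They are those of RefSeq on GRCm38.p6. A copy of miR-181a lies at chr1:137966468-137966490 and a copy of miR-181b at chr1:137966650-137966673, both on the plus strand.
miR-181a-5p: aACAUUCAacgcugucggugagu
miR-181b-5p: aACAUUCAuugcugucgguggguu
Both pair with the letters TGAATGT in a 3′ untranslated region. Of the 7 markers and the 22 other pericyte genes followed below, 5 of 29 hold that match in the GENCODE M21 annotation of GRCm38, compared with 3634 of 21027 genes (17.3%). The first match is printed for 4 of them, with its neighbours in lower case, because in these pericyte genes a seed match can be looked at beside a level.
Abcc9, chr6:142588680-142588686, minus strand: tctgttggagcTGAATGTcatgatgttta
Ano1, chr7:144588607-144588613, minus strand: caaaacaaaacTGAATGTatacacaccca
Pde5a, chr3:122857604-122857610, plus strand: agtttttgttcTGAATGTgaatattgcct
S1pr3, chr13:51420125-51420131, plus strand: ctccatccttcTGAATGTaccaagctgct
In Ano1 and S1pr3 the match is followed by an A, which makes it an 8mer site, and in Abcc9 and Pde5a it is not. A match describes letters and does not show that the microRNA binds there.

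The library labelled sponge held 23267 barcodes and 132067896 UMIs, and the library labelled GFP held 39461 barcodes and 123040365 UMIs. Kept cells had a median of 2980.5 UMIs in the library labelled sponge and 2415 in the library labelled GFP. Pericytes carried a median of 4561.5 UMIs (range 1011 to 55631) against 2801.5 (595 to 30213), and 2198 against 1652.5 genes. Their summed UMIs came to 980744 and 1171994. The 2 libraries shared 287 barcodes, of which 0 were pericytes. The eGFP sequence went against the labels: 700 of 23052 other kept cells (3.04%) had a UMI of it in the library labelled sponge, and 10 of 38963 (0.0257%) in the library labelled GFP. The library names are therefore used as labels throughout, and every direction below rests on them. In pericytes eGFP was found in 2 of 148 cells (1.35%, 0.164 to 4.80%) of the library labelled sponge and in 0 of 322 of the library labelled GFP, which allows a share of cells with a UMI of up to 0.932% (3 counts). Abca4 had 31 UMIs in sponge pericytes and 60 in GFP pericytes, at 31.6 and 51.2 CPM (UMIs per 1000000 UMIs of the same cells), below the 56.2 and 72.4 CPM of the other kept cells. Tags at the 3′ end do not show whether the deleted part of the gene is present.

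Pericytes made up 0.638% (0.540 to 0.749%) of kept cells in the library labelled sponge and 0.820% (0.733 to 0.914%) in the library labelled GFP, a log2 ratio of −0.36 (−0.65 to −0.08). That direction depended on the depth and on the number of markers. When every cell was thinned to 1000 UMIs, 118 of 21980 sponge cells (0.537%) and 149 of 38404 GFP cells (0.388%) met the rule, a log2 ratio of 0.47. With at least 5 markers required, a setting chosen after seeing the data, 74 sponge cells (0.319%) and 82 GFP cells (0.209%) were left, a log2 ratio of 0.61. The thinning left out 1220 sponge and 881 GFP cells with fewer UMIs. No order of the pericyte share can be read from these libraries. Set against endothelial cells, found by the analogous rule, there were 0.497 pericytes per endothelial cell in the library labelled sponge (298 endothelial cells) and 0.505 in the library labelled GFP (638 endothelial cells). For cells with 5 to 7 markers these ratios were 0.248 and 0.129, so this ratio depended on the marker number too. The eye had been dissociated, and how well papain frees capillary cells was not measured.

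The excluded genes removed more cells than they left. A total of 236 sponge and 403 GFP barcodes had at least 3 markers and at least 1 excluded gene. Among barcodes with 5 or more markers, 83 of 157 in the library labelled sponge and 67 of 149 in the library labelled GFP fell out this way. Myh11, the smooth muscle myosin, was present in 40 of those 157 sponge barcodes and 17 of those 149 GFP barcodes, and Rpe65, the retinoid isomerase of the RPE, in 21 and 36. Rpe65 had a UMI in 17.9% of all kept sponge cells and 22.1% of all kept GFP cells, and C1qa, a complement gene of macrophages, in 10.3% and 7.37%. Just inside the rule, the 54 sponge and 151 GFP cells with exactly 3 markers had a median of 2 Rgs5 UMIs in either library. Just outside it, the 521 sponge and 848 GFP cells with 2 markers had a median of 1.

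The markers were unevenly spread over the pericytes of both libraries. Rgs5, a brake on G-protein signalling and the best-known pericyte transcript, was found in 138 of 148 sponge and 295 of 322 GFP pericytes, at 3529 and 1433 CPM. Vtn, which encodes vitronectin, reached 1794 and 673 CPM. The potassium channel subunits Abcc9 and Kcnj8 were at 482 and 200 CPM in sponge pericytes and at 315 and 157 CPM in GFP pericytes. Pdgfrb, the PDGF receptor, was at 353 and 259 CPM, Higd1b at 230 and 114 CPM, and the proteoglycan gene Cspg4 at 87.7 and 62.3 CPM. Cells with 5 to 7 markers made up 74 of 148 sponge pericytes and 82 of 322 GFP pericytes (25.5%). In those cells the median was 37 Rgs5 UMIs in the library labelled sponge and 6 in the library labelled GFP.

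A list of 22 pericyte genes that the rule did not use was set beside the marker number. It includes Notch3, the receptor that maintains mural cells, Ndufa4l2 and Cox4i2, hypoxia-linked subunits of respiratory complexes, P2ry14, a receptor for UDP-sugars, and the transcription factors Ebf1, Foxs1, Heyl and Tbx18. Their summed level was 3181 CPM in sponge pericytes against 455 CPM in other kept sponge cells, and 1955 CPM in GFP pericytes against 521 CPM in other kept GFP cells. Pericytes were thus at 6.99 times their library's other cells in sponge and 3.75 times in GFP. The level was higher in cells with 5 to 7 markers than in cells with 3 or 4, though not at every step, at 5625 against 1082 CPM in sponge and 2807 against 1636 CPM in GFP. Cells with 2, 3 and 4 markers were at 461, 884 and 1745 CPM in the library labelled sponge and at 675, 1336 and 2185 CPM in the library labelled GFP. Cells with 5, 6 and 7 markers were at 6109, 4920 and 6169 CPM in the library labelled sponge and at 2578, 3625 and 2486 CPM in the library labelled GFP, the last from 3 cells. Of the cells with 5 to 7 markers, 0 of 74 sponge and 1 of 82 GFP cells lacked every one of the 22 genes, and of the cells with 3 or 4 markers 8 of 74 and 14 of 240 did. The label pericyte is thus weaker for the cells with 3 or 4 markers. The 22 genes do not set pericytes apart from the barcodes that the rule left out: those with 5 or more markers and an excluded gene were at 3498 and 2454 CPM, and 0 of 83 sponge and 0 of 67 GFP ones lacked them all.

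**Figure D1:**
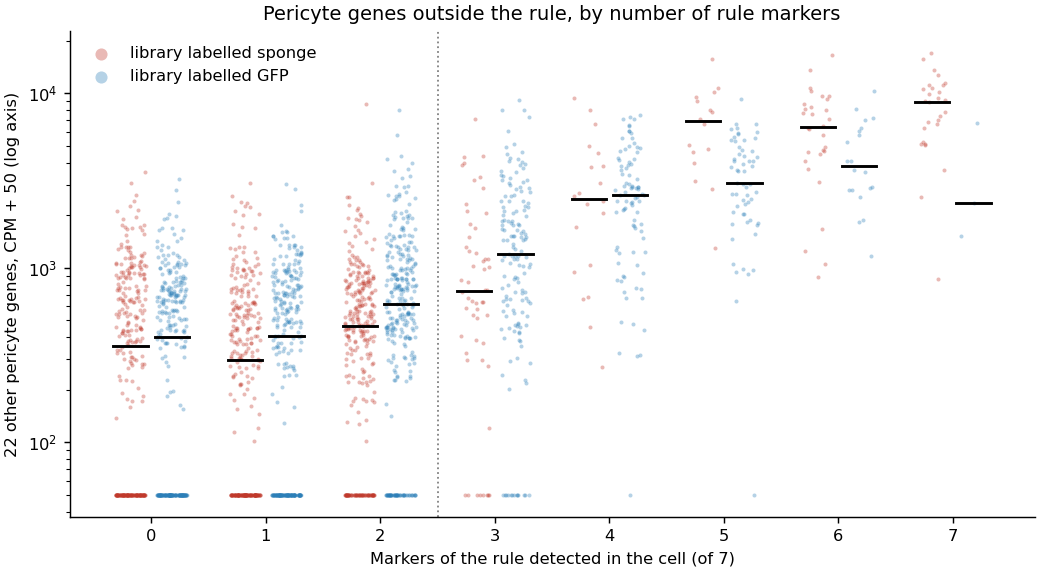
Summed level of 22 pericyte genes outside the rule in single cells, as CPM + 50 on a log axis, by the number of rule markers detected, with the library labelled sponge left and the library labelled GFP right at each number. Each point is a cell without excluded genes (a fixed number drawn at random for 0 to 2 markers), black bars are medians, and the dotted line is the rule's limit of 3 markers; points at the bottom have 0 UMIs, and the sponge medians stand above the GFP medians from 5 markers on.

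Outside the rule, genes were ranked by their level over all other kept cells. They were not ranked against smooth muscle cells alone or against the barcodes left out for an excluded gene. The 20 genes with the highest level over the other kept cells, taking the lower of the 2 libraries for each gene, included Gm13861, Casq2, Slc38a11, Ndufa4l2, Atp13a5, Adap2, Adap2os, Aspn, Gja4, Pcdh18, Rgs4, Itga1, Slc30a10, Il34, Gm13889, Cd248 and Rasl12. They were ranked on the cells that the rule chose, so the order is a description. Casq2, calsequestrin, which holds calcium in the sarcoplasmic reticulum, was at 133 CPM in 58 sponge pericytes and 46.9 CPM in 47 GFP pericytes, with 1.97 and 1.90 CPM in the other cells. Aspn, asporin, a small matrix proteoglycan, was at 269 and 156 CPM. Itga1, the collagen-binding integrin α1, was at 394 and 225 CPM. Gja4, which encodes the gap junction protein connexin 37, was at 113 and 46.1 CPM. Il34, a ligand of the CSF1 receptor, was at 117 and 50.3 CPM. Adap2 and Adap2os lie antisense to each other, and Gm13861 lies within Cald1 on the opposite strand. No source used here gives the strand setting of the counting, so counts of either gene of a pair may include reads of the other. Of these 20 genes 19 were higher in sponge pericytes, as were 5140 of the 9291 genes with at least 30 UMIs over both sets of pericytes. Pcdh18, a protocadherin, was at 66.3 CPM in sponge and 70.8 CPM in GFP pericytes.

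**Figure D2:**
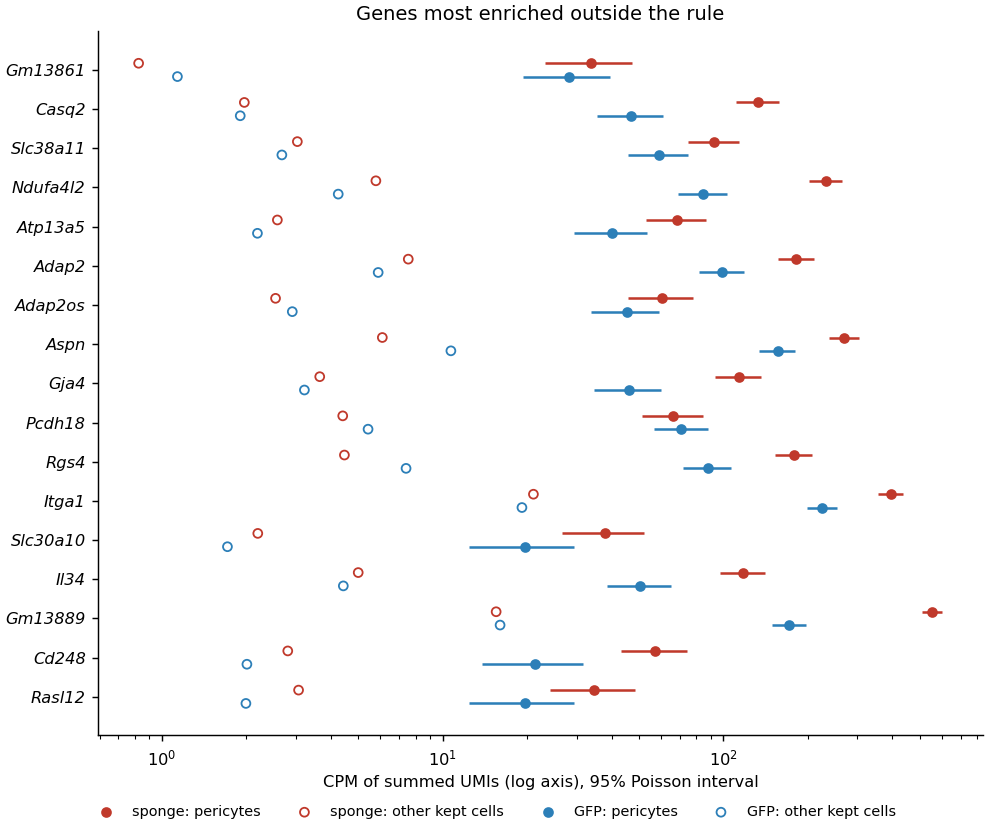
Level of 17 of the 20 genes most enriched in pericytes, as CPM of summed UMIs on a log axis with 95% Poisson intervals, for sponge (upper of each pair, red) and GFP (lower, blue). Filled points are pericytes and open points are all other kept cells of the same library; each filled point stands at least several times to the right of its open point, and sponge stands right of GFP for all genes but Pcdh18.

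How far a gene was seen in single pericytes depended on depth. Notch3 had a UMI in 76 of 148 sponge pericytes (51.4%) and 92 of 322 GFP pericytes (28.6%). After thinning to 1000 UMIs these shares were 25.7% (18.9 to 33.5%) and 10.7% (7.52 to 14.6%). Ndufa4l2 stood at 27.7% and 10.4% after thinning, Myl9 at 40.5% and 16.0%, and Ebf1 at 44.6% and 44.7%. Rod-rich cells, those with at least 3% of their UMIs in 15 rod genes and none of the 7 markers, should lack these genes. Unthinned, at median depths of 1739 and 1603 UMIs, Notch3 was in 0.308% of 1297 sponge and 0.317% of 1262 GFP rod-rich cells, and Myl9 in 4.70% and 2.06%.

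RNA of other cell types was also counted in the pericytes. A list of 15 rod genes summed to 8238 CPM in sponge pericytes and 9725 CPM in GFP pericytes, close to the 8938 and 11215 CPM of the other kept cells. Lists of other cell types were summed in the same way. RPE genes were at 377 and 672 CPM, against 3861 and 3624 CPM in other cells. Melanocyte genes were at 1214 and 2715 CPM, led by Dct with 428 and 1786 UMIs. Macrophage genes were at 202 and 184 CPM, against 674 and 446 CPM in other cells. Fibroblast genes were at 645 and 831 CPM, mostly Dcn with 373 and 674 UMIs, and Dpt was at 0 in both. Endothelial genes were at 735 and 689 CPM, from Flt1 and Kdr, with Cldn5, the tight junction gene of the endothelial barrier, at 3 and 18 UMIs and Icam2 at 0 and 1. Haemoglobin and other erythrocyte genes were at 73.4 and 998 CPM, and epithelial genes at 3049 and 789 CPM. The part of this RNA in the differences below was not tested.

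Between the libraries, 9291 genes had at least 30 UMIs over both sets of pericytes and were counted as measured. Of these, 484 (5.21%) were at least 2-fold higher in sponge pericytes and 200 (2.15%) at least 2-fold lower, and the median log2 ratio was 0.07. In all, 5140 of the 9291 were above 0 and 4151 below, which is the share to set beside the counts of each list below. Without the top cell of each gene in each library, 337 were at least 2-fold higher and 381 at least 2-fold lower, so the larger number lay on the other side. Genes at least 2 times the other kept cells in both libraries, 242 in number, had a median of 0.69, with 223 above 0 and 19 below. Of the 242, 56 were at least 2-fold higher and 0 at least 2-fold lower. In the other kept cells of the same libraries these 242 genes had a median of 0.18. The choice of pericytes by marker UMIs is not independent of these genes, and a larger share of sponge pericytes had 5 to 7 markers. Among cells with 5 to 7 markers in both libraries, the same 242 genes had a median of 0.92. There, 5095 genes had at least 30 UMIs, of which 504 (9.89%) were at least 2-fold higher and 385 (7.56%) at least 2-fold lower. Fewer pericyte transcripts per droplet and more foreign RNA per droplet cannot be told apart in a CPM.

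**Figure D3:**
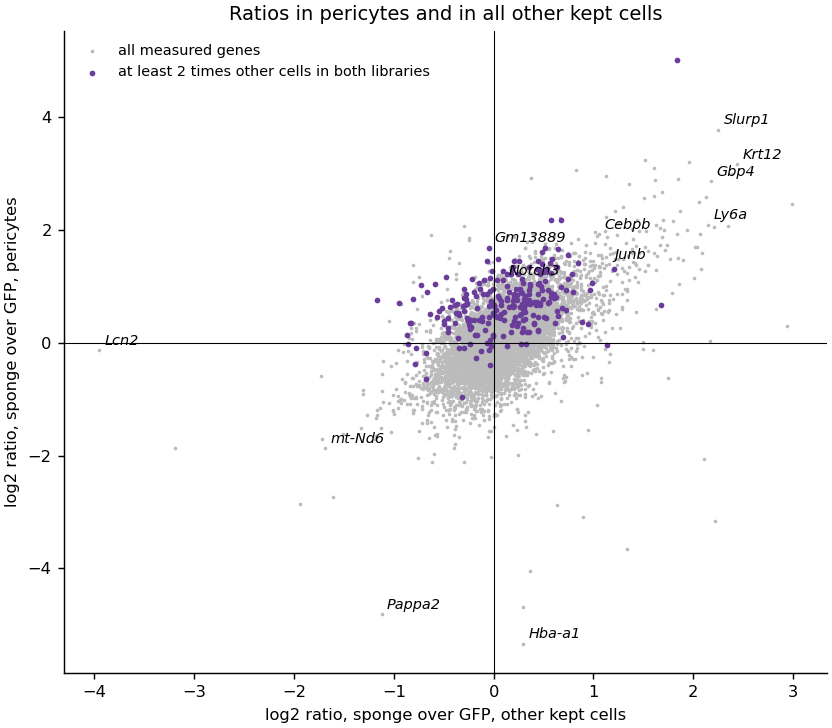
log2 ratio of sponge over GFP for measured genes other than the markers, in all other kept cells (horizontal axis) and in pericytes (vertical axis); each point is a gene, purple points are the genes at least 2 times the other cells in both libraries, and both axes come from the same 2 libraries. The purple genes lie mainly above 0 on the vertical axis, with medians of 0.69 in pericytes and 0.18 in other cells; the purple point at the top is Saa1, from 2 sponge cells.

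Of the 22 listed pericyte genes outside the rule, 21 were measured, and 20 of these were higher in sponge pericytes and 1 lower, with a median log2 ratio of 0.84 against 0.04 in the other kept cells. In all, 6 genes passed 2-fold. Ndufa4l2 was at 231 CPM in sponge and 84.5 CPM in GFP pericytes, a log2 ratio of 1.45 (1.11 to 1.81), and Cd248, endosialin, at 57.1 and 21.3 CPM. Mcam, the adhesion molecule CD146, was at 42.8 and 17.9 CPM, and Notch3 at 225 and 104 CPM, a log2 ratio of 1.11 (0.79 to 1.45). Lamc3, a laminin chain, was at 58.1 and 25.6 CPM. Ebf1 differed less, at 768 and 556 CPM, and Art3 was at 30.6 and 34.1 CPM with an interval that spans 0 (−0.89 to 0.56).

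Genes of the contractile apparatus, by which mural cells narrow a vessel, had a median log2 ratio of 0.54, with 20 of 22 measured genes above 0. In the other kept cells the median was 0.46, with 19 of the same 22 above 0. In pericytes, 5 of these genes passed 2-fold. Des, the intermediate filament desmin, had 47 UMIs in sponge and 12 in GFP pericytes, a log2 ratio of 2.18 (1.29 to 3.28). Cald1, caldesmon, which restrains actin and myosin, was at 1047 and 476 CPM. Myl9, the regulatory myosin light chain, was at 359 and 144 CPM, and Cnn2, calponin 2, at 45.9 and 18.8 CPM. The arteriolar genes were low and not uniformly higher. Acta2, smooth muscle actin, was at 132 and 86.2 CPM, and Tagln at 87.7 and 95.6 CPM with an interval of −0.55 to 0.29. In smooth-muscle-like cells, which need Myh11 or Cnn1 and 3 of 7 contractile genes, Acta2 was at 2756 and 1150 CPM. Acta2 is itself 1 of those 7 genes, so its level there is a description only. Synpo2, synaptopodin 2, was lower, at 58.1 CPM in sponge and 101 CPM in GFP pericytes.

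Channels and receptors for vasoactive signals had a median log2 ratio of 0.42, with 14 of 18 measured genes above 0, against −0.19 in the other kept cells. Cacna1c, the pore of the L-type calcium channel, was at 268 and 175 CPM (0.62, 0.35 to 0.89). Ednra, the endothelin A receptor, was at 144 and 99.0 CPM. For the nitric oxide pathway, the guanylyl cyclase subunit Gucy1b1 was at 289 and 189 CPM and its partner Gucy1a1 at 180 and 160 CPM, the second with an interval of −0.12 to 0.46. Pde5a, which breaks down cyclic GMP, was at 154 and 116 CPM. The gap junction gene Gjc1, connexin 45, was at 156 and 84.5 CPM, and Gja4 alone in this list passed 2-fold. Kcnma1, the large-conductance potassium channel, was lower, at 471 and 641 CPM, with 584 and 678 CPM in the other cells.

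Genes of the signalling between endothelium and pericytes had a median of 0.34, with 22 of 26 measured genes above 0. In the other kept cells the median was 0.15, with 20 of the same 26 above 0. Hbegf, an EGF-receptor ligand, was at 180 CPM in 24 sponge pericytes and 67.4 CPM in 30 GFP pericytes. Tgfbr3, the TGF-β co-receptor betaglycan, was at 63.2 and 28.2 CPM. Id3, a target of BMP signalling, was at 388 and 194 CPM. Among Notch genes, Notch1 was at 112 and 67.4 CPM and the effector Heyl at 41.8 and 22.2 CPM, while Hes1 was at 361 and 381 CPM. Angpt1, the pericyte ligand of the endothelial receptor Tie2, was lower, at 56.1 and 87.9 CPM (−0.64, −1.15 to −0.16). Pdgfb, the endothelial ligand of Pdgfrb, had 0 and 3 UMIs in pericytes.

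Basement membrane genes had a median of 0.73, with 14 of 16 measured genes above 0, against 0.19 in the other kept cells. The collagen IV chains Col4a1 and Col4a2 were at 222 and 115 CPM in sponge pericytes and at 131 and 75.9 CPM in GFP pericytes. The laminin chains Lama4 and Lamc1 were at 71.4 and 179 CPM in sponge and at 36.7 and 99.0 CPM in GFP pericytes. Lamb2 was at 55.1 and 21.3 CPM, and Hspg2, which encodes perlecan, had 26 and 11 UMIs. Genes of the interstitial matrix were mixed, with 12 of 18 measured genes above 0 and a median of 0.41. Mgp, matrix Gla protein, an inhibitor of calcification, was at 1667 and 892 CPM in pericytes, against 133 and 210 CPM in other cells. Dcn, decorin, a fibroblast gene, was lower at 380 and 575 CPM. Spp1, osteopontin, was at 196 and 81.9 CPM, and its UMIs came from 10 sponge and 45 GFP pericytes. Timp1 had 11 and 31 UMIs.

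Genes for leukocyte recruitment and the acute phase had a median of 0.76, with 22 of 26 measured genes above 0, against 0.32 in the other kept cells. Cebpb, the transcription factor C/EBPβ, had 605 UMIs in 82 sponge pericytes and 189 UMIs in 107 GFP pericytes, at 617 and 161 CPM, a log2 ratio of 1.93 (1.70 to 2.18) against 1.06 in the other cells. Cebpd was at 791 and 394 CPM. The chemokine genes came from few cells. Ccl2, which draws monocytes, had 181 UMIs from 13 sponge and 87 UMIs from 31 GFP pericytes, and Cxcl10 had 49 UMIs from 11 and 21 UMIs from 8. The UMIs of C3, complement component 3, came to 97.4% from 1 of 2 sponge pericytes with any, and without the top cell of each library its log2 ratio was −2.55. Lcn2, lipocalin 2, was at 432 CPM in sponge and 474 CPM in GFP pericytes, but in 7 of 148 and 108 of 322 cells, with 96.2% of the sponge UMIs from 1 cell. Rod-rich cells had Lcn2 in 1.93% in the library labelled sponge and 26.4% in the library labelled GFP.

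Among cells with 5 to 7 markers, a set examined after its values were seen, 18 of 26 genes of this group were above 0, with a median of 0.95. Lcn2 had 0 UMIs in 74 sponge cells and 163 UMIs in 22 of 82 GFP cells, and C3 had 0 and 2 UMIs. The genes that follow were picked for their values. Ccl2 had 154 UMIs in 8 of 74 sponge cells and 4 UMIs in 3 of 82 GFP cells, a log2 ratio of 4.59 (3.37 to 6.65). Without the top cell of each library it was 4.86 (3.29 to 8.24). Il6 had 63 UMIs in 8 sponge and 3 UMIs in 2 GFP cells. Ccl11, an eosinophil chemokine, had 84 UMIs in 4 sponge and 2 UMIs in 2 GFP cells, and Cxcl1, which draws neutrophils, 187 UMIs in 20 sponge and 23 UMIs in 9 GFP cells. Over all pericytes the order was not the same for each gene. Ccl2 was in 8.78% of sponge and 9.63% of GFP pericytes and Ccl11 in 4.05% and 6.21%. Il6 was in 6.76% and 3.73%, and Cxcl1 in 19.6% and 15.8%. In rod-rich cells Ccl2 was in 2.54% and 0.951%, Ccl11 in 0.617% and 1.51%, Il6 in 0.308% and 0.238% and Cxcl1 in 2.85% and 3.09%. At least 1 of 5 picked genes, Ccl2, Il6, Ccl11, Cxcl1 and Cxcl10, was found in 23 of 74 sponge cells (31.1%) and 13 of 82 GFP cells (15.9%). Cells with such a UMI were deeper, at a median of 5412 UMIs against 4490 for those without in sponge, and 3059 against 2712 in GFP. The 5 genes summed to 500 and 32 UMIs, with at most 116 and 9 from 1 cell. Fibroblasts, which need Lum and 3 of 7 fibroblast genes, had Ccl2 at 387 and 98.4 CPM and Ccl11 at 384 and 187 CPM, whereas in smooth-muscle-like cells Ccl2 was at 48.5 and 24.3 CPM. Lists of other cell types went both ways in the 5 to 7 marker cells. Fibroblast genes were at 192 CPM in sponge and 364 CPM in GFP, and epithelial genes at 5711 and 1079 CPM. The part of such RNA in the chemokine UMIs was not tested.

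**Figure D4:**
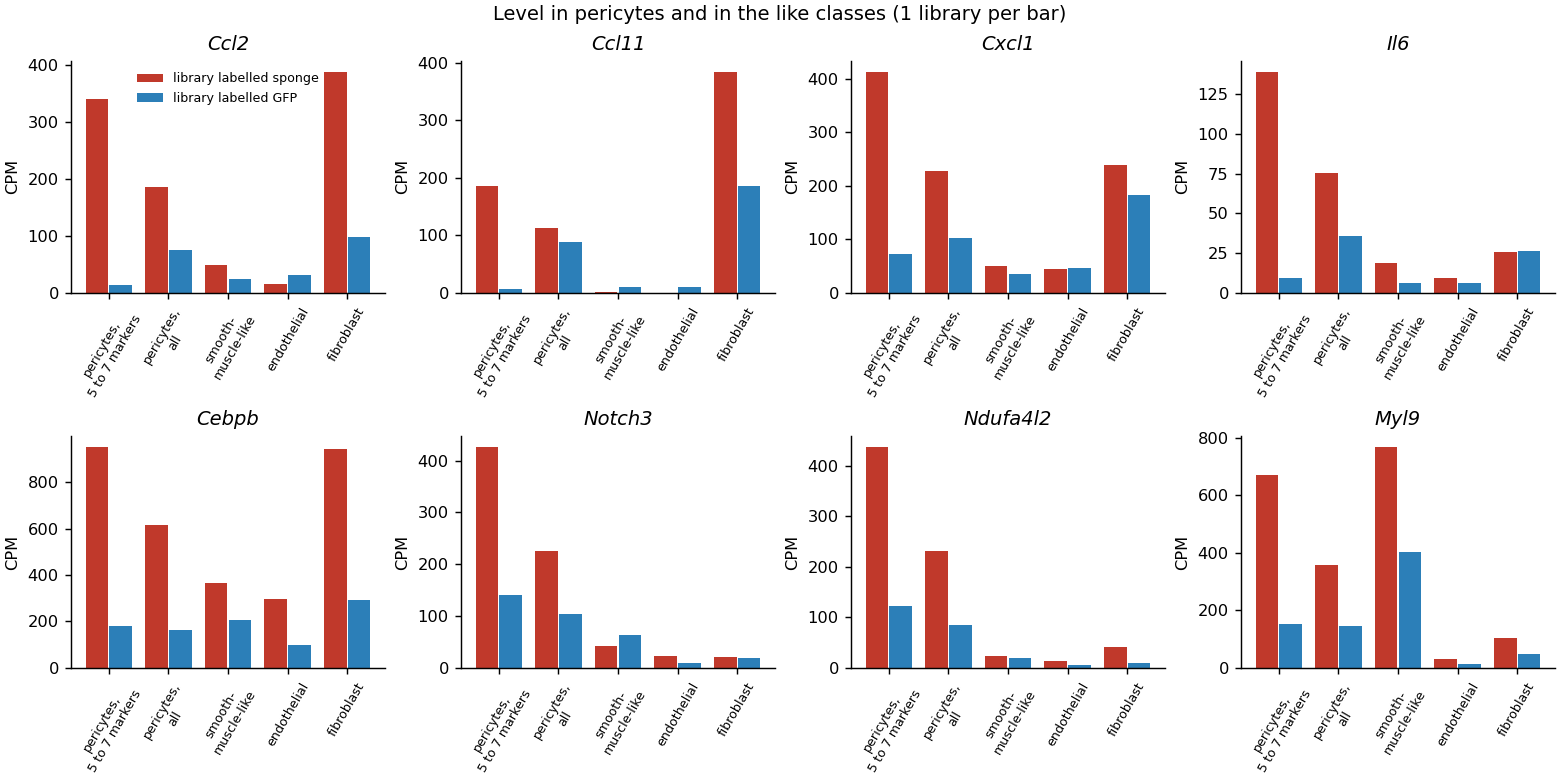
CPM of summed UMIs of 8 genes in pericytes with 5 to 7 markers, all pericytes, smooth-muscle-like, endothelial and fibroblast cells, with the library labelled sponge left (red) and the library labelled GFP right (blue) in each pair; each bar is 1 library and has no error bar for replicates. In the library labelled sponge, Ccl2 is at 340 CPM in pericytes with 5 to 7 markers and 387 CPM in fibroblasts, Notch3 and Ndufa4l2 are highest in pericytes, and Myl9 is shared with smooth-muscle-like cells.

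A ranking of genes in cells with 5 to 7 markers, added after seeing the data, took genes with at least 50 UMIs in these cells and, over both libraries, at least 2 times the level of the other kept cells. A gene could enter it through the library where it was high alone, so its genes are given as values only. It held Gm13889, at 478 UMIs in 56 sponge cells and 73 UMIs in 34 GFP cells, and Mgp, at 2871 and 844 CPM. Adamts4, a protease that cuts matrix proteoglycans, had 118 and 13 UMIs. Tagln2, transgelin 2, had 109 and 13 UMIs, and Rrad, a small GTPase that restrains L-type calcium channels, 69 and 7 UMIs. The immediate early gene Nr4a1 had 202 and 36 UMIs, and Phlda1 196 and 41 UMIs. The ranking itself used the ratios left without the top cell of each library and held as higher only genes above 0. These ratios of the 7 genes, from 1.73 for Mgp to 2.65 for Adamts4, are therefore no separate check. Genes of surface epithelium were in the same ranking. Krt12, a corneal keratin, had 1977 UMIs in 19 sponge cells and 171 UMIs in 7 GFP cells, of which 1712 (86.6%) and 162 (94.7%) came from 1 cell. Krt5, Aldh3a1, Lypd2 and Aqp5 were also in it, at 1053, 894, 1033 and 867 CPM in sponge and at 160, 103, 163 and 84.7 CPM in GFP cells.

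Interferon response genes had the highest list median, 1.28, with 26 of 27 measured genes above 0 and 15 at least 2-fold higher. The same list had a median of 1.08 in the other kept cells. Ly6a, the surface antigen Sca-1, was at 151 CPM in 31 sponge pericytes and 34.98 CPM in 25 GFP pericytes. Iigp1, an immunity-related GTPase, was at 193 and 48.6 CPM, and Gbp4, a guanylate-binding protein, had 33 and 5 UMIs. Antigen presentation genes had a median of 1.01, with 14 of 14 measured genes above 0, and a median of 1.28 in the other cells. The class I gene H2-K1 was at 193 and 71.7 CPM and the immunoproteasome subunit Psmb8 at 75.5 and 25.6 CPM. Class I genes resemble each other closely, so their reads may be split between copies.

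Immediate early and heat shock genes, which answer quickly to stimulation and stress, had a median of 0.67 with 23 of 28 measured genes above 0, close to the 0.74 of the other cells. Junb was at 1278 and 485 CPM and Btg2 at 746 and 257 CPM. Hspa1a was at 839 and 352 CPM while its near-identical neighbour Hspa1b was at 732 and 757 CPM, and reads of these copies may be shared.

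Mitochondrial transcripts ran the other way. All 13 measured mitochondrially encoded genes were lower in sponge pericytes, with a median of −0.72, against −0.65 in the other kept cells. The mitochondrial share of UMIs had a median of 7.31% in sponge and 10.1% in GFP pericytes, against 8.87% and 11.2% in all kept cells. mt-Nd6, a complex I subunit encoded on the light strand, was at 114 and 419 CPM, and mt-Nd4l and mt-Atp8, which overlap neighbouring genes, at 309 and 137 CPM in sponge and at 1008 and 418 CPM in GFP pericytes. Nuclear genes of oxidative phosphorylation had a median of −0.56, with 35 of 42 below 0, against −0.34 in the other cells. Atp5k, a subunit of ATP synthase, was at 104 and 253 CPM, and Ndufc1, a complex I subunit, at 136 and 290 CPM. Cytoplasmic ribosomal protein genes were at a median of −0.11. Hypoxia and glycolysis genes had a median of 0.14, with 15 of 23 above 0, and Hk2, hexokinase 2, was lower at 99.9 and 213 CPM. Oxidative stress genes had a median of 0.20, apoptosis and senescence genes 0.35, and of the 14 cell cycle genes 1 was measured.

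**Figure D5:**
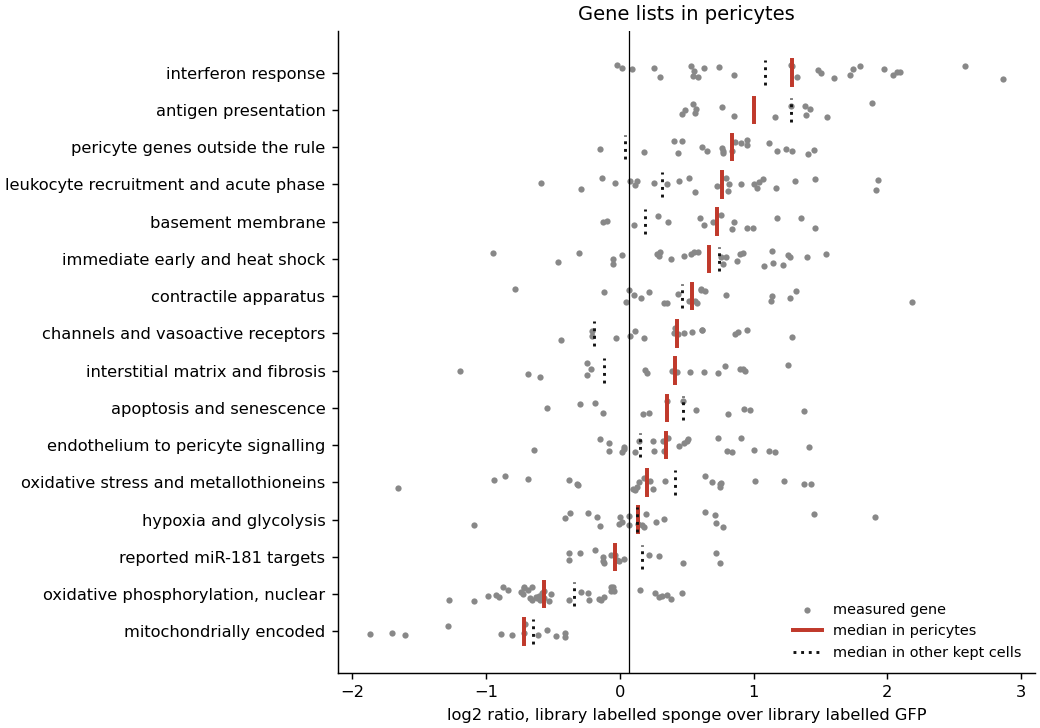
log2 ratio of sponge over GFP in pericytes for the measured members of 16 gene lists, with the highest median at the top. Grey points are genes, red bars list medians in pericytes, dotted bars medians of the same genes in the other kept cells, and the vertical line the median of all measured genes (0.07); the listed pericyte genes stand at 0.84 in pericytes and 0.04 in other cells, while interferon, antigen presentation and mitochondrial lists moved in both.

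The genes with the largest ratios were led by transcripts of the corneal and conjunctival surface. Krt12, the keratin of the corneal epithelium, was at 2305 CPM in sponge and 255 CPM in GFP pericytes, a log2 ratio of 3.17, against 2.44 in the other cells. Slurp1, Aqp5, Aldh3a1, Lypd2, Sfn and Krt16, which surface epithelia also express, ranged from 176 to 655 CPM in sponge and from 28.2 to 116 CPM in GFP pericytes. The deepest sponge pericyte, with 55631 UMIs, 7 markers and 60 Rgs5 UMIs, held 74.5% of the sponge UMIs of 8 such genes, and the deepest GFP pericyte, with 30213 UMIs and 5 markers, held 37.5% of the GFP UMIs. No doublet caller was run. Without the 10% of pericytes with the most UMIs in each library, Krt5 was at −0.76 (−1.64 to 0.02) and Sfn at −0.66 (−1.52 to 0.12). Both intervals span 0. The 12 highest by the counting interval also held 2610528A11Rik, Urah, Sprr1a and Ptx3, from 3 to 6 sponge cells each. Cebpb was the only one of the 12 found in more than 36 sponge pericytes. A gene could enter the 12 through the library where it was high alone, so the order is a description. Slurp1, for one, was at 2.75 times the other cells in sponge and 0.939 times in GFP.

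The 12 lowest genes could likewise enter through the library where they were high alone, so they are given as values only. They included Pappa2, a protease of IGF-binding proteins, with 1 UMI in sponge and 50 UMIs in 16 GFP pericytes. Pappa2 was at 0.158 times the other cells in sponge and 3.03 times in GFP. Ulk4 had 9 and 82 UMIs. Hpgd, which inactivates prostaglandins, had 10 UMIs in 6 sponge and 54 UMIs in 25 GFP pericytes, and Neto1 had 10 and 54. The glial gene S100b had 55 and 159 UMIs. Rpl38, Rpl22l1 and Rpl37a, of the large ribosomal subunit, were at 430, 191 and 553 CPM in sponge and at 814, 376 and 933 CPM in GFP pericytes, and Rpl38 was at 410 and 822 CPM in the other cells. Snrpg, Sec61g, Hk2 and Mlph completed the 12. Hba-a1, a haemoglobin gene, had 5 UMIs in sponge and 265 UMIs in 17 GFP pericytes, at 5.10 and 226 CPM, with 218 and 178 CPM in the other cells. Over both libraries it was below the level of the other cells, and so it was not ranked with the 12. Its copy Hba-a2 may share its reads.

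Reported miR-181 targets had a median of −0.03, with 6 of 17 measured genes above 0 and 0 past 2-fold, against 0.16 in the other kept cells. Coq10b, of coenzyme Q function, was the highest at 155 and 92.2 CPM (0.75, 0.38 to 1.12), with 0.74 in the other cells. Nrf1, a regulator of mitochondrial biogenesis, was at 76.5 and 76.8 CPM. Measured genes with a seed match had a median of 0.02 (2043 genes) and those without one 0.09 (6818 genes). Among the genes at least 2 times the other cells, those with a match had 0.68 (48 genes) and those without 0.74 (184 genes). The 4 genes whose sites are printed above were all higher in sponge pericytes, with log2 ratios from 0.41 for Pde5a to 0.84 for S1pr3. Abcc9 is a marker of the rule, so its ratio comes from counts that chose the cells. Of the 21 measured pericyte genes outside the rule, with or without a match, 20 were higher, with a median of 0.84. Of the other enriched genes with a match, Rgs4, a regulator of G-protein signalling, was at 178 and 87.9 CPM, Itga1 at a log2 ratio of 0.80 and Pcdh18 at −0.09.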

How the data were processed

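The deposited matrices hold UMI counts per gene and barcode, raw and not normalized by the authors, made with Cell Ranger 7.0.0 on mm10 per the submitters' processing notes. No source used here gives the intron handling or the barcode calling. The matrices list 32286 features. Barcodes with at least 500 UMIs, 300 genes and at most 25% mitochondrial UMIs were kept, which removed 67 sponge and 176 GFP barcodes. UMIs were summed over pericytes per library and given as CPM with exact Poisson intervals. Ratios are log2 of sponge over GFP with 0.5 added, with exact binomial intervals, and shares have Clopper-Pearson intervals, all at 95%. With 1 library per group no test was run. The members, the 17 gene lists and 15 marker lists were chosen with earlier results of these data known.

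Named genes are the rule's 14 genes and list members the text needs. They are also the 12 highest and 12 lowest by the interval bound nearest 0, with at least 50 UMIs and not mitochondrial. These had at least the level of the other cells over both libraries together, which 1 library alone could supply. The 20 most enriched with at least 20 UMIs per library were named too. Up to 4 members per list and direction past 2-fold were added, as were, after seeing the data, the leaders among cells with 5 to 7 markers. A rod class planned as the negative took 84.1% of kept sponge and 79.9% of kept GFP cells, so rod-rich cells replaced it. Some genes that these rules name are not reported here. Seed matches were read from GENCODE M21 transcripts. Ratios and intervals were checked on simulated data. Python 3.11.15, numpy 2.4.6, scipy 1.17.1, pandas 2.3.3 and matplotlib 3.10.9 were used.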

Additional observations from a re-analysis of the deposited data

How the results depend on the processing

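No paired analysis was possible because each group is 1 library and its cells are not assigned to mice. Of 1393 gene values under alternatives, 1075 moved by less than their counting interval, 298 moved further and 20 reversed. Among the 1075 are values that could not move: 102 at a minimum of 10 UMIs, 71 at 100 and 102 without shared barcodes, which held 0 pericytes. Only genes past 2-fold with an interval that left out 0 could be called reversed. Of 237 list medians, 227 stayed between the median lower and the median upper bound of their genes' intervals, and 10 did not. Those bounds come from single genes and are no interval of the list median, so staying between them is a weak check. List medians without shared barcodes could not move. Only a list with a reported median past 2-fold could be called reversed, and 0 were. Smaller medians could change sign uncounted: lists with a median above 0 numbered 13 as reported and 14 with at least 4 markers. The log2 ratio of the pericyte share reversed to 0.47 with cells thinned to 1000 UMIs and to 0.61 with at least 5 markers. C3 reversed to −3.59 with at least 4 markers, −3.80 with at least 2 of the 4 core markers, −1.25 thinned, −1.90 without the deepest 10%, −2.83 with at least 5 markers and −2.55 without each library's top cell. Other reversals were Cxcl10 (−0.064, at least 4 markers), Aqp5 (−0.51), 2610528A11Rik (−1.25), Mlph (0.34) and Timp1 (2.66) when thinned. Without the deepest 10%, 2610528A11Rik was −0.95, Sprr1a −1.69, Ptx3 −1.01, Sfn −0.66, Gsta4 −0.010 and Krt5 −0.76. Ptx3 was −3.31 with at least 5 markers, and without the top cell Ptx3 was −0.19 and Krt16 −1.28. The pericyte genes over other cells, 6.99 times in sponge and 3.75 in GFP, came to 10.5 and 4.77 with at least 4 markers, 9.35 and 4.15 with core markers and 5.31 and 3.47 with excluded genes allowed at 1 UMI. They came to 14.9 and 6.63 thinned, 10.2 and 4.52 without the deepest 10% and 12.3 and 5.30 with at least 5 markers, and GFP to 2.91 with the stricter cell filter. Genes at least 2-fold higher and lower numbered 136 and 119 thinned, 988 and 583 at a minimum of 10 UMIs and 143 and 53 at 100. They numbered 504 and 385 with at least 5 markers, 534 and 402 with cells weighted equally and 337 and 381 without top cells, where the balance of 484 higher and 200 lower turned round. The causes were not tested. Depth limits the low genes: the median pericyte had 4561.5 UMIs in sponge and 2801.5 in GFP.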
